A study of Mus musculus with 8 samples.

Results

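The 8 α-defensin (Defa) genes of lower count described here were Defa34, Defa5, Defa35, Defa41, Defa40, Defa3, Defa26 and Defa28, out of 28 protein-coding Defa genes and 55414 gene IDs in the count table. They were chosen by their readout in these same libraries, namely a count below that of the dominant Defa genes and the values of TG against WT. Their levels and their TG against WT differences are therefore given as a description, without p-values, and counts of how many passed a threshold are no independent test of them. RNA had been sequenced from Paneth cells that were sorted by FACS from mouse small intestine. The WT group held 4 libraries of wild type mice. The TG group held 4 libraries of mice with the genotype DT TG, whose Paneth cells are described by the submitters as expressing diphtheria toxin, an agent that stops protein synthesis. The series is described as profiling cells after depletion of mature Paneth cells. The study describes its animals as C57BL/6J mice and as individual mice. The sources used here give neither the age of the mice nor the promoter that drives the toxin nor the time of its expression. TG libraries thus hold the cells that could still be sorted, and toxin RNA was not examined here. Total counts per library ranged from 13107397 to 16218434.

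α-Defensins are short antimicrobial peptides that Paneth cells store in granules and release into the crypt lumen. They are made as pre-pro-peptides, and in the mouse the matrix metalloproteinase Mmp7 cuts the pro-peptide to free the active peptide. Exon 1 codes for the signal peptide and most of the pro-segment, and exon 2 codes for the mature, cysteine-rich peptide that acts on bacterial membranes.

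The exon 2 coding stretches come first, because they show how alike the 8 genes are in the bases that code for the mature peptide. They were read from the GRCm39 assembly, 5′ to 3′ on the plus strand of chromosome 8, and bases in capitals differ from the Defa34 stretch in a pairwise alignment. The Defa34 stretch lies at chr8:22156546-22156652, and Defa5 and Defa35 hold the same 107 bases. Defa41 differs at 2 bases. The peptides were not translated or compared, so few differing bases do not show equal peptides. Defa24, the Defa gene with the most counts, is shown for comparison.
Defa34: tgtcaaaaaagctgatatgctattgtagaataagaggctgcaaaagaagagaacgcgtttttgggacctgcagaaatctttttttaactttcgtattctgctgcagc
Defa41: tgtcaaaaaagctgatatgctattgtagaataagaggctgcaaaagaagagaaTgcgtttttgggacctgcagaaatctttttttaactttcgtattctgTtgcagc
Defa40: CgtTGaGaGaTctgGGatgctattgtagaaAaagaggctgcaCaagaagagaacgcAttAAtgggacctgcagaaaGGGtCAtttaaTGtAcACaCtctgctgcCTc
Defa26: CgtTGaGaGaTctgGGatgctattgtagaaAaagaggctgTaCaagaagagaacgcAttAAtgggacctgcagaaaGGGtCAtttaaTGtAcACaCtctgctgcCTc
Defa3: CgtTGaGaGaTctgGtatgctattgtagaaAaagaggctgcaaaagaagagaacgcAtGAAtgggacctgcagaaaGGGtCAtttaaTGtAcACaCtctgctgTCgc
Defa28: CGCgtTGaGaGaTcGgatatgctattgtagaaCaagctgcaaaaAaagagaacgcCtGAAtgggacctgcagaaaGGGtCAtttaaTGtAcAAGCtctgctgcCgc
Defa24: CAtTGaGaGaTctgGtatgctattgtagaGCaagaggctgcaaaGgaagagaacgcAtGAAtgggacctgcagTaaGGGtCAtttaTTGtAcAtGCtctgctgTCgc

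The 8 genes thus fell into 4 sets of similar coding sequence, when all 28 genes were linked at 97% identity or more. Defa34, Defa5, Defa35 and Defa41 formed a Defa34 subgroup, with pairwise identities from 97.5% (Defa41 and Defa34, 272 of 279 bases) to 98.9%, together with Defa36 and Defa37, which were nearly without counts. Counted from the first base of the stretch, the changes from Defa34 to Defa41 were C54T and C101T. Defa40 and Defa26 formed a pair with 97.8% identity, and their exon 2 stretches differed by T41C, read from Defa26 to Defa40. The Defa3 coding sequence was identical to that of Defa17 over 279 bases, and it was 97.1% identical to that of Defa30, through which Defa24 was linked as well (98.6% with Defa30, 95.7% with Defa3). Defa28 stood alone at this threshold and was closest to Defa25, at 94.0% identity. Between the Defa34 subgroup and Defa40 the exon 2 stretch differed at 26 or 28 bases, as the capitals in the Defa40 line show.

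All 8 genes have 2 exons and lie on the plus strand of the Defa locus, which spans 710 kb of chromosome 8. Among the 8 genes, those of the same subgroup were not direct neighbours. Similar genes did come in a repeated order, since Defa40, Defa3 and Defa5 follow each other, as do their close relatives Defa26, Defa17 and Defa34. Defa35 lies at chr8:21555054-21556012, Defa5 at chr8:21787455-21788391 and Defa34 at chr8:22155768-22156751, with other Defa genes between them. Defa41 (chr8:21681585-21692570), Defa40 (chr8:21739770-21740572), Defa3 (chr8:21777413-21778393) and Defa5 are direct neighbours in the order of Defa genes, although they belong to 3 subgroups. Defa28 lies at chr8:22072965-22073980 and Defa26 at chr8:22108199-22108988. The Ensembl IDs of the 8 genes are ENSMUSG00000063206 for Defa34, ENSMUSG00000074439 for Defa5, ENSMUSG00000061845 for Defa35, ENSMUSG00000079116 for Defa41, ENSMUSG00000074441 for Defa40, ENSMUSG00000074440 for Defa3, ENSMUSG00000060070 for Defa26 and ENSMUSG00000074434 for Defa28. The annotated start of Defa41 belongs to a read-through isoform that overlaps Defa31.

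Since reads cannot be placed between identical stretches, the share of exon windows that occur once in the locus was computed for each gene. Of the 75-base windows in its exons, 88.2% were unique for Defa40 and 87.5% for Defa26. The share was 52.4% for Defa35, 47.6% for Defa41 and 34.8% for Defa34. It was 19.2% for Defa28, 10.2% for Defa3 and 3.07% for Defa5. Defa5 shared 69.7% of its windows with Defa34, and Defa3 shared 89.4% with Defa17. The sources used here do not say how reads with several alignments were counted, so the split of counts between genes with shared windows is uncertain. The shared part was largest for Defa5 and Defa3, and Defa28 shared 32.7% of its windows with Defa25 of another subgroup. At 50 bases Defa5 had 0% unique windows. At 75 bases, all 8 Defa genes with at most 24 counts over all libraries (Defa2, Defa20, Defa23, Defa31, Defa32, Defa33, Defa36 and Defa37) had 0% unique windows, and each other Defa gene had more than 0%. The part of shared windows in these low counts was not tested, so a low count of a gene with few unique windows does not show a low level of its transcript. This holds for the levels, ranks and shares of Defa counts given here. Gene counts also do not tell transcripts of 1 gene from transcripts that join exons of several Defa genes.

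Levels between genes were compared per length, as the count scaled to the library total (CPM) over the exon length in kilobases (RPKM). By these counts, the 8 genes took the ranks 9 to 16 of 28 in the WT means, below Defa17 and above Defa42. WT means ran from 4560 ± 540 RPKM for Defa26 to 103 ± 19.2 RPKM for Defa28 (SD, n = 4), against 303336 RPKM for Defa24. In between stood Defa34 with 3263 ± 617, Defa40 with 3066 ± 395, Defa5 with 1975 ± 229, Defa3 with 884 ± 172, Defa35 with 585 ± 110 and Defa41 with 168 ± 44.8 RPKM. The WT ranges of neighbours in this order overlapped for Defa26 with Defa34 and for Defa34 with Defa40, and the other 5 pairs of neighbours did not overlap. In the TG means the order changed at 2 places. Defa40 stood above Defa34 (2395 ± 555 against 1817 ± 243 RPKM), and Defa28 stood above Defa41 (111 ± 18.4 against 81.6 ± 21.3 RPKM), with overlapping TG ranges in both cases. The place of Defa34 rests on its merged exon length of 562 bases, against 375 bases in its canonical transcript. By mean CPM, Defa34 stood above Defa40 in TG (1021 against 922) and above Defa26 in WT (1834 against 1696).

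**Figure D1:**
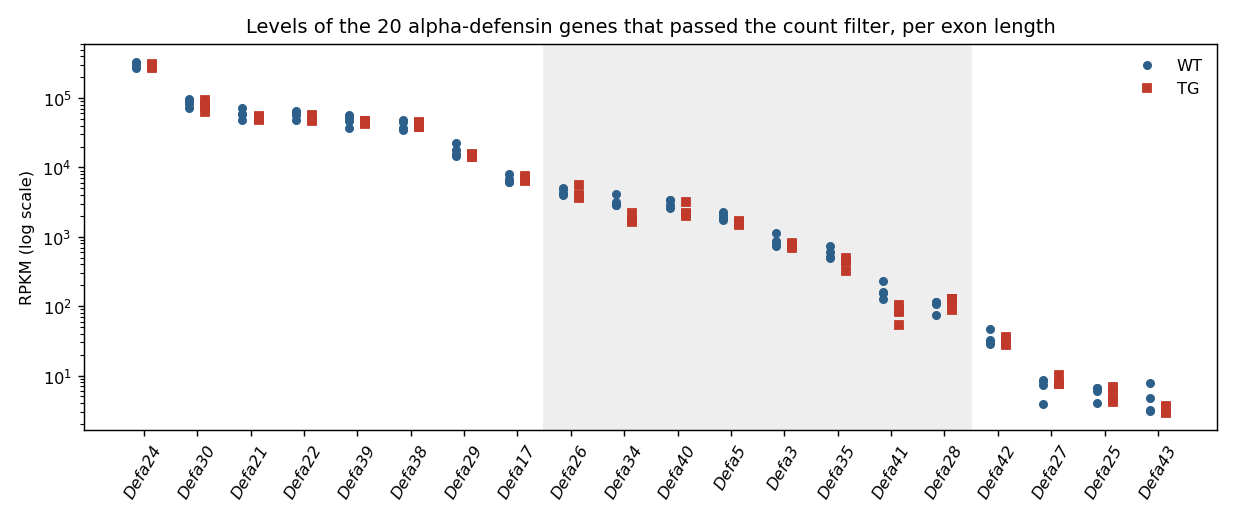
RPKM on a log scale of the 20 Defa genes that passed the count filter, ordered by the WT mean, with 1 point per library (WT circles, TG squares, 4 each). The 8 genes described here, on the grey field, sit side by side at ranks 9 to 16, from 4560 RPKM for Defa26 to 103 RPKM for Defa28 in the WT means.

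Of the summed Defa counts, the 8 genes together held 1.70 ± 0.209% in TG libraries, against 2.08 ± 0.0445% in WT libraries (SD, n = 4). The 4 TG libraries held 1.54, 1.51, 1.80 and 1.95%, and the 4 WT libraries held 2.14, 2.09, 2.04 and 2.06%. All TG values lay below all WT values. The counts of all 28 Defa genes made up 27.7 ± 1.15% of a TG library and 29.7 ± 3.36% of a WT library, and these ranges overlapped. In bulk samples, fewer cells of a type and less RNA per cell cannot be told apart. The 3 Defa genes with the most counts (Defa24, Defa30 and Defa39) held 69.9 ± 1.61% of them in TG and 68.9 ± 0.876% in WT, with overlap.

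Defa34, the gene with the most counts in its subgroup, was counted at 971, 967, 1224 and 923 CPM in TG replicates 1 to 4 and at 2338, 1785, 1591 and 1621 CPM in WT replicates 1 to 4. The groups did not overlap, and WT replicate 1 was the highest library. Its log2 fold change of TG over WT, fitted with edgeR on all genes, was -0.99 ± 0.17 (SE). As a share of the Defa counts, Defa34 held 0.371 ± 0.0636% in TG and 0.616 ± 0.0681% in WT. The log2 ratio of Defa34 to the counts of all other Defa genes differed between TG and WT by -0.74 ± 0.14 (SE), again without overlap.

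Defa41, with the fewest counts of the 4 genes of this subgroup that passed the filter on low counts, had 41.6, 38.2, 48.3 and 24.6 CPM in TG and 108, 74.4, 58.7 and 73.2 CPM in WT. Again no TG library reached a WT library, and TG replicate 4 was the lowest. The log2 fold change was -1.20 ± 0.29, and the log2 ratio to the other Defa counts differed by -0.95 ± 0.24. Its share of the Defa counts was 0.0138 ± 0.00384% in TG and 0.0262 ± 0.00421% in WT. In TG replicate 4 this share rested on 337 counts, with a 95% Wilson interval from 0.00811 to 0.0100%, the widest relative interval of the 8 genes and covering counting error only.

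Defa35 had 179, 180, 194 and 126 CPM in TG, and 293, 196, 206 and 237 CPM in WT. The groups were just apart, with 194 CPM in the highest TG library and 196 CPM in the lowest WT library. The log2 fold change was -0.61 ± 0.19. On the scale of the Defa share the ranges overlapped, at 0.0614 ± 0.0114% in TG and 0.0781 ± 0.00678% in WT.

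Defa5 had 618, 576, 634 and 559 CPM in TG and 852, 690, 660 and 768 CPM in WT, without overlap. The log2 fold change was -0.46 ± 0.14. Its share of the Defa counts was nearly the same in all WT libraries, at 0.250 ± 0.00255%, and it was 0.216 ± 0.0174% in TG. The log2 ratio to the other Defa counts differed by -0.21 ± 0.06. Since most Defa5 windows occur in Defa34 too, their counts were also added, and the sum had a log2 fold change of -0.82. For the whole Defa34 subgroup, the summed counts gave -0.81 ± 0.16, with 1809, 1761, 2100 and 1634 CPM in TG and 3592, 2745, 2515 and 2699 CPM in WT. The subgroup held 0.662 ± 0.0925% of the Defa counts in TG and 0.971 ± 0.0749% in WT, and it accounted for -0.308 of the -0.379 percentage points by which the 8 genes together differed between TG and WT.

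Within the Defa34 subgroup the 4 genes did not keep their proportions. The count of Defa34 was 1.57, 1.68, 1.93 and 1.65 times that of Defa5 in the TG libraries and 2.74, 2.59, 2.41 and 2.11 times in the WT libraries, without overlap. The count of Defa41 was 0.233, 0.212, 0.249 and 0.195 times that of Defa35 in TG and 0.370, 0.380, 0.285 and 0.309 times in WT, also without overlap. The ratio of Defa34 to Defa35 overlapped, at 6.11 ± 0.914 in TG and 7.92 ± 0.937 in WT. These ratios compare near-identical genes within 1 library, so they do not depend on the scaling but do depend on how shared reads were assigned.

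**Figure D2:**
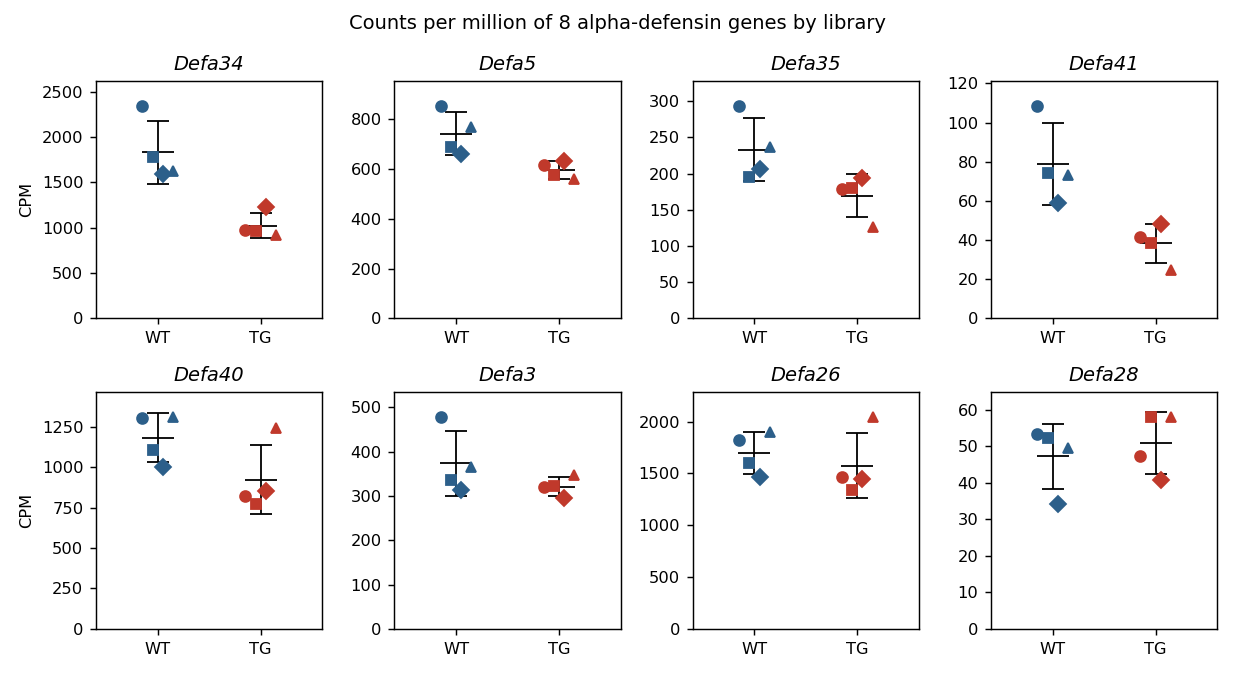
CPM of the 8 genes in each library (WT blue, TG red, marker shape by replicate: circle 1, square 2, diamond 3, triangle 4), with the group mean and SD. For Defa34, Defa5, Defa35 and Defa41 every TG point lies below every WT point, and for Defa40, Defa3, Defa26 and Defa28 the points overlap.

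Defa40, of the other near-identical pair, had 824, 774, 850 and 1239 CPM in TG, and 1304, 1107, 1001 and 1309 CPM in WT. The TG values of replicates 1 to 3 lay below all WT values, and TG replicate 4 lay among them. The log2 fold change was -0.48 ± 0.21, and the log2 ratio to the other Defa counts differed by -0.28 ± 0.17. Defa26 had 1468, 1340, 1450 and 2043 CPM in TG and 1820, 1598, 1465 and 1903 CPM in WT, with TG replicate 4 as the highest of all 8 libraries. Its log2 fold change was -0.23 ± 0.19, with -0.14 without WT replicate 1 and -0.44 without TG replicate 4, and its share of the Defa counts was 0.571 ± 0.122% in TG and 0.572 ± 0.0346% in WT. The count ratio of Defa40 to Defa26 within a library does not depend on scaling. It was 0.562, 0.578, 0.587 and 0.607 in TG, and 0.717, 0.693, 0.684 and 0.688 in WT, so that the ranges were apart even where the CPM of both genes overlapped.

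Defa3 had 319, 323, 295 and 347 CPM in TG and 477, 336, 314 and 364 CPM in WT. WT replicate 1 was far above the other libraries, which lay close together in both groups. The log2 fold change was -0.36 ± 0.19, and the log2 ratio to the other Defa counts differed by -0.10 ± 0.07. Without WT replicate 1 the log2 fold change was -0.14. Relative to Defa17, its identical coding partner, the count of Defa3 was 0.112 ± 0.00250 in TG and 0.129 ± 0.00741 in WT, without overlap, and the sum of both genes had a log2 fold change of -0.17.

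Defa28, with the lowest WT mean of the 8 genes, had 47.2, 58.0, 40.8 and 58.0 CPM in TG and 53.2, 52.1, 34.2 and 49.4 CPM in WT. The ranges overlapped, and the log2 fold change was -0.03 ± 0.22. Its direction depended on the scale. The mean CPM was 51.0 ± 8.47 in TG and 47.2 ± 8.85 in WT, and the log2 ratio to the other Defa counts was higher in TG by 0.21 ± 0.16. With total counts as the scale, the median over all tested genes shifted from 0.01 to 0.12 (log2 fold change), and Defa28 was at 0.11.

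Over all tested genes, 9.65% passed an adjusted p of 0.05 as lower in TG (edgeR quasi-likelihood test, Benjamini-Hochberg adjustment), and in 3.91% every TG library lay below every WT library in CPM. Among the 8 genes, 4 passed as lower and the same 4, Defa34, Defa5, Defa35 and Defa41, had no overlap in CPM. Nothing is read from these counts, since the genes were selected on this contrast and these 4 share most of their coding sequence. All 8 passed the filter on low counts. Of the other 20 Defa genes, 12 passed the filter and 0 were called by edgeR. The 8 genes left out had at most 24 counts each over all libraries. The median log2 fold change was -0.47 over the 8 genes, -0.28 over the 12 others and 0.01 over all tested genes. The count of 4 was 2 with total counts (Defa34 and Defa41), and it was between 1 and 4 when 1 library was left out. Without TG replicate 1, TG replicate 2 or WT replicate 4, Defa34 alone passed. Without TG replicate 3 or WT replicate 1, Defa34 and Defa41 passed, and without TG replicate 4 these 2 and Defa40 passed. Defa35 lay at the threshold and did not pass when genes linked by shared windows were summed. With limma voom, Defa40 passed besides the 4. With no filter on low counts, Defa34, Defa5, Defa35, Defa40 and Defa3 passed.

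**Figure D3:**
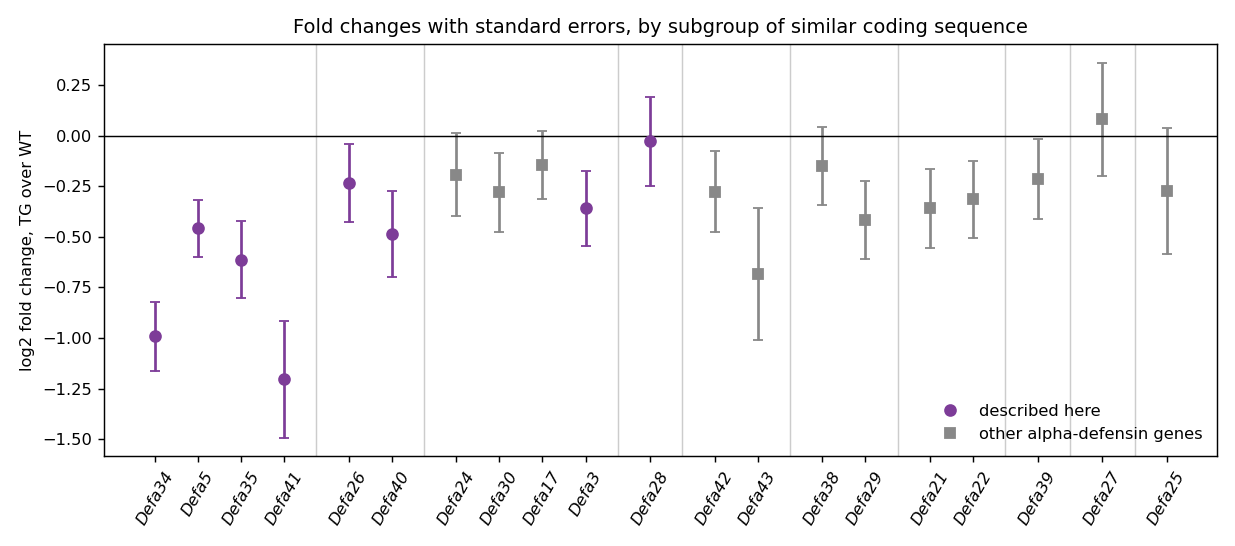
Log2 fold change of TG over WT with its SE for the 20 Defa genes that passed the count filter, with vertical lines between subgroups linked at 97% coding identity. The Defa34 subgroup at the left spans -1.20 to -0.46, and the other 4 genes described here lie between -0.48 and -0.03.

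**Figure D4:**
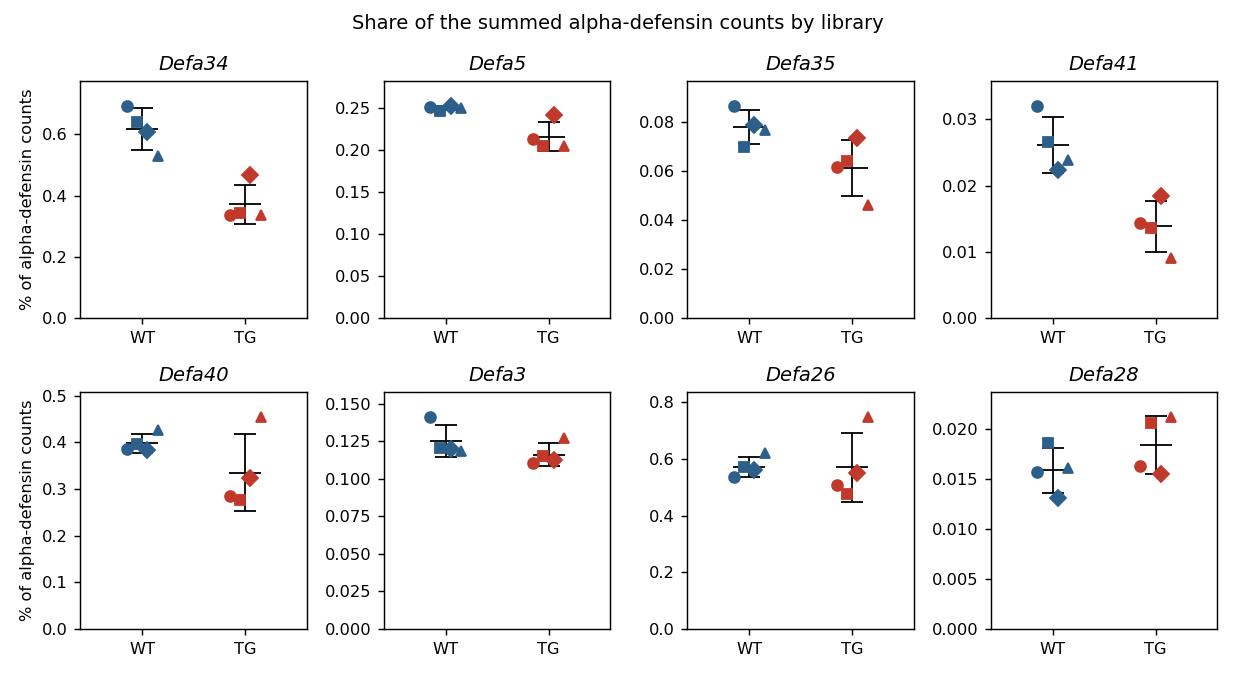
Share of the summed counts of 28 Defa genes, in percent, for each of the 8 genes and each library (WT blue, TG red, marker shape by replicate as in the CPM plot), with the group mean and SD. TG and WT are apart for Defa34, Defa5 and Defa41 and overlap for Defa35, Defa40, Defa3, Defa26 and Defa28.

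The genes also differed in how single libraries deviated from their group mean. As a description over 8 libraries, which share scaling and in part reads, the deviations of log2 CPM had a Pearson r of 1.00 for Defa40 and Defa26 (0.997 before rounding), although 88.2 and 87.5% of their windows were unique. Within the Defa34 subgroup, r ran from 0.79 for Defa41 and Defa5 to 0.93 for Defa35 and Defa41. Between Defa41 and Defa40 or Defa26, r was 0.17. Among the 8 genes, the 7 pairs within a subgroup had a median of 0.86, and the 21 pairs between subgroups had a median of 0.67, with 0.90 for Defa3 and Defa5. With the other Defa genes included, this order held only in part. Defa34 had a higher r with Defa43 (0.92) than with any gene of its subgroup, and Defa5 had 0.93 with Defa24. Defa40 and Defa26 had 0.94 and 0.93 with Defa22. Within its own subgroup, Defa3 had 0.99 with Defa17 and 0.96 with Defa24, but 0.69 with Defa30. With Defa29 of another subgroup it had 0.98. TG replicate 4 showed this in plain values, since it was the lowest TG library for all 4 genes of the Defa34 subgroup and the highest for Defa40, Defa26 and Defa3.

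**Figure D5:**
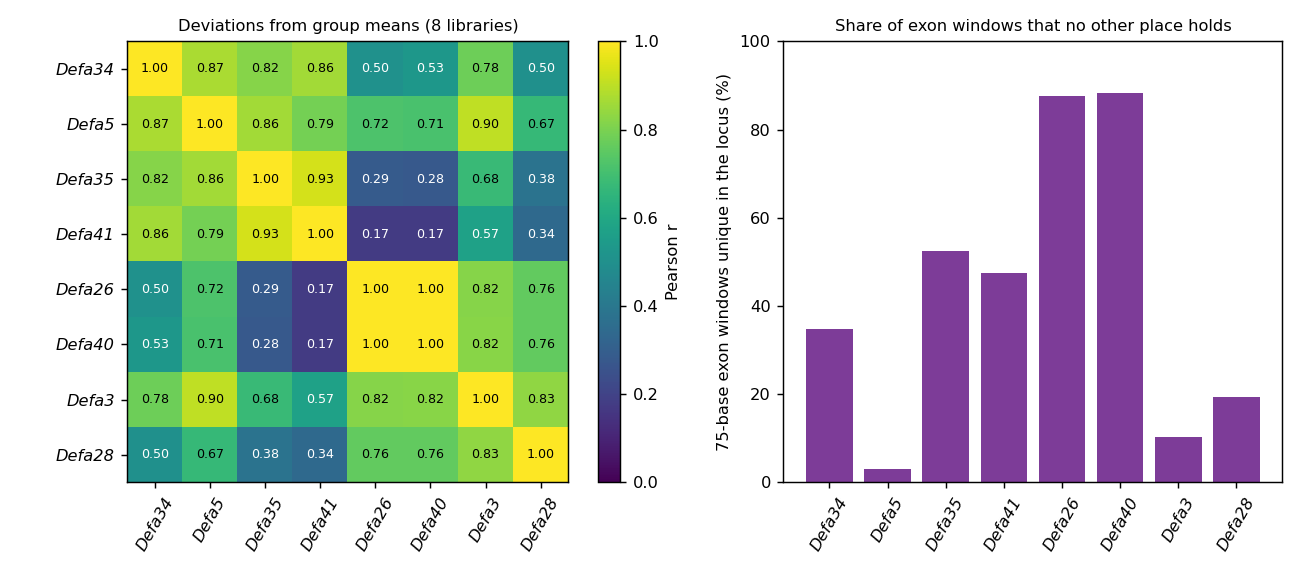
Left, Pearson r between the 8 genes of the deviations of log2 CPM from the group means over 8 libraries. Right, the share of 75-base exon windows that occur once in the locus, in percent. Defa26 and Defa40 have r of 1.00 and the highest unique shares, and Defa41 has r of 0.17 with both.

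Genes outside the family were screened for similar deviations. Of 8102 genes with a mean log2 CPM of at least 3, between 23 (for Defa35) and 111 (for Defa3) had an r above 0.9 with 1 of the 8 genes. The number that chance would give over so few libraries was not computed. The genes named next are therefore only the top of this screen. The closest were Trappc9 (0.98) and Slc46a3 (0.98) for Defa34, Asah1 (0.99) and Afg3l2 (0.98) for Defa5, Zmat2 (0.98) and Dsc2 (0.97) for Defa35, and Vmac (0.97) and Tmem176a (0.97) for Defa41. For Defa40 they were Sar1b, a GTPase of vesicle export from the endoplasmic reticulum, and Dram2, with r of 0.99 each. Dram2 and Pals2 were closest to Defa26 (0.99 each), Tmem165 and Otud3 to Defa3 (0.99 each), and Serpinb6a (0.99) and Cfap68 (0.97) to Defa28.

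The sequences before the genes were compared within and between subgroups. The stretch of 250 bases that ends 80 bases before the start codon lay before exon 1 in all 8 genes. It differed at 2 of 250 bases between Defa34 and Defa41 and between Defa34 and Defa5, and at 3 bases between Defa40 and Defa26. The letters CTTTGAT, which T-cell factor proteins of the Wnt pathway are known to bind, were searched on both strands. On the reverse strand they read ATCAAAG, and matches in either form are in capitals. Defa34 had 2 matches (chr8:22155483-22155732) and Defa40 had 1 (chr8:21739448-21739697).
Defa34: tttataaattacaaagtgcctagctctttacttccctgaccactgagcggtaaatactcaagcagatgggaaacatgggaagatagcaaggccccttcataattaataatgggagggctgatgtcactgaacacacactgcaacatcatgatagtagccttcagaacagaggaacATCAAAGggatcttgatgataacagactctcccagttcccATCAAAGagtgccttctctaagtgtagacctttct
Defa40: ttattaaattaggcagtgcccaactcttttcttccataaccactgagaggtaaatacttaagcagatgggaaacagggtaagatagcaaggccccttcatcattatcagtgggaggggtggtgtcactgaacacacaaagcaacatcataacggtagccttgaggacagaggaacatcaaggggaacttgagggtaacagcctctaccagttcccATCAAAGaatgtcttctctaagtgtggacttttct
There were 2 matches in Defa34, Defa5, Defa35, Defa41 and Defa3, 1 in Defa40 and Defa26, and 0 in Defa28. The Defa28 window, like that of Defa25, ends in letters that in Defa34 run into its first match. The 0 of Defa28 thus holds for this window and does not show that the letters are absent before the gene. Among all 28 Defa genes, 14 had 2 or more, 7 had 1 and 7 had 0. Of 32851 RefSeq promoter windows of 250 bases on the earlier GRCm38.p6 assembly, which end at the annotated start and not before the start codon, 3.21% held at least 1 match and 0.0822% held at least 2. These matches are letters in a window and say nothing about binding.

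Libraries with and without counts of 4 genes of the Y chromosome (Uty, Kdm5d, Eif2s3y and Ddx3y) were compared, since replicates 1 and 2 of both groups had 0 such counts and replicates 3 and 4 had 897 to 1564. This split was no part of the choice of genes. None of the 8 genes passed the edgeR test for it, with 0 at an adjusted p of 0.05, 0 at an unadjusted p of 0.05 (1 without TG replicate 3, TG replicate 4 or WT replicate 2) and 0 by DESeq2, while 0.176% of all genes passed. The lowest adjusted p was 0.959. The largest difference was that of Defa41, at -0.35 ± 0.26 on the log2 scale (with over without Y-linked counts). For the interaction of the split with the group, 0 of the 8 genes and 0.0251% of all genes passed. The unadjusted p was below 0.05 for 1 gene, Defa34, at 0.0493 (adjusted p = 0.864 by edgeR). DESeq2 gave 0 at the adjusted and 1 at the unadjusted threshold. Leaving out 1 library kept the adjusted count at 0, and moved the unadjusted count to 4 without WT replicate 4, to 2 without WT replicate 2 (lowest adjusted p = 0.126 by edgeR), and to 0 without TG replicate 1, TG replicate 2, WT replicate 1 or WT replicate 3. The log2 fold changes of TG over WT fitted within each kind of library were -1.31 ± 0.22 for Defa34 without Y-linked counts and -0.64 ± 0.18 with them. For Defa41 they were -1.41 ± 0.27 and -0.94 ± 0.33, for Defa40 -0.80 ± 0.19 and -0.19 ± 0.29, and for Defa26 -0.49 ± 0.20 and 0.00 ± 0.28. The gap was smaller for Defa35 (-0.67 ± 0.27 and -0.54 ± 0.19) and Defa5 (-0.58 ± 0.20 and -0.32 ± 0.18). Defa3 was at -0.56 ± 0.24 and -0.13 ± 0.19, and Defa28 at -0.21 ± 0.15 and 0.18 ± 0.38.

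A further list held genes of α-defensin processing, Paneth cell maturation, microbe sensing and granule traffic, together with 7 genes of other granule proteins. Of its 27 genes, 25 passed the filter, 7 were lower in TG, of which 3 code for other granule proteins, and 1 was higher, against 9.65 and 8.26% of all tested genes. The 8 called genes were 3 without TG replicate 2 and 5 without TG replicate 1, TG replicate 3 or WT replicate 2. Mmp7, which activates the pro-peptides, had 4135 ± 361 CPM in TG and 5650 ± 597 in WT, with a log2 fold change of -0.59 ± 0.15 (adjusted p = 0.0179 by edgeR). The zinc importer gene Slc39a4 was lower (-0.81 ± 0.13, adjusted p = 0.00162). Of the Wnt genes, Tcf7l2 was lower (-0.32 ± 0.10, adjusted p = 0.0464), and the receptor gene Fzd5, needed for Paneth cell maturation, was higher (0.42 ± 0.10, adjusted p = 0.0132). Nod2, a sensor of bacterial cell wall fragments, was lower (-1.04 ± 0.33, adjusted p = 0.0425) at 0.714 ± 0.202 CPM in TG and 1.36 ± 0.223 CPM in WT.

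Of the 7 genes of other granule proteins, 3 were lower and 4 were not called. The log2 fold change was -2.75 ± 0.38 for the lectin gene Reg3g (adjusted p = 0.00347), -1.35 ± 0.20 for Mptx2 (adjusted p = 0.00116) and -0.57 ± 0.18 for Ang4 (adjusted p = 0.0370). Lyz1, the lysozyme gene of Paneth cells, was at 0.07 ± 0.21 (adjusted p = 0.832), with 181489 CPM in TG and 158233 CPM in WT. The other genes that were not called were Mptx1 at -1.02 ± 0.64 (adjusted p = 0.321), Pla2g2a at -0.45 ± 0.15 (adjusted p = 0.0524) and Itln1 at -0.10 ± 0.18 (adjusted p = 0.743). The adjusted p values are from edgeR.

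Marker lists were used to check the label. The 7 Paneth markers (Lyz1, Mmp7, Ang4, Mptx2, Itln1, Defa24 and Defa30) summed to between 404786 and 437491 CPM in TG and between 386274 and 447677 CPM in WT. Lyz1, Defa24, Itln1 and Defa30 held most of this sum, and Mmp7, Ang4 and Mptx2 were lower in TG, 3 of 7 against 9.65% of all tested genes, with 0 higher. Of 10 enterocyte markers, 4 were higher in TG (Alpi, Apoa4, Apob and Mttp), against 8.26% of all tested genes, 0 were lower, and 6 were not called. The fitted log2 fold change was above 0 for 9 of the 10, with a list median of 1.66 against 0.01 over all tested genes. Their summed level overlapped, at 463 to 623 CPM in TG and 378 to 501 CPM in WT, and most of it was Vil1, with means of 361 CPM in TG and 378 CPM in WT. Alpi, the intestinal alkaline phosphatase gene of enterocytes, stood at 4.91 ± 2.09 CPM in TG and 0.756 ± 0.584 CPM in WT. Vil1 and Alpi were singled out after their values were seen. Goblet markers summed to 4846 to 6582 CPM in TG and 4958 to 7125 CPM in WT, with 0 of 7 called. The stem cell, proliferation, enteroendocrine and tuft cell lists had 14 tested genes, of which Smoc2 was lower and no other was called. Of the immune markers, 1 passed the filter and was not called, and S100a8 had 0 counts in all libraries. The part of other cell types in the values of the 8 Defa genes was not tested.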

How the data were processed

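The authors deposited whole-number counts per Ensembl gene ID for 8 libraries of a stranded poly(A) kit, with no normalization. The submitters' processing notes name FastQC 0.12.0, STAR 2.7.0a, DESeq2 and the mm39 assembly. The counting tool is not given in the sources used here, nor is the use of reads with several alignments. Symbols and exon lengths came from GENCODE M39 on GRCm39, which matched 54749 of 55414 IDs. Groups and replicate numbers came from the labels. The 8 genes and all lists were chosen with earlier results of these data known. Total counts ranged from 13107397 to 16218434 per library.

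All 8 libraries entered an edgeR 4.0.16 quasi-likelihood fit (robust, TMM factors, default filter, 11929 genes, group as the only term, adjusted over all genes at 0.05). The SE is the fold change over the square root of F. The steps were tested on simulated data. CPM used total counts, RPKM the merged exon length, and log2 ratios a pseudocount of 0.5. Named genes were the 8 genes, the 3 most abundant other Defa genes, partners by shared windows, called genes of the list on processing, maturation, sensing and granule proteins, Mmp7 and Lyz1, and for each gene the 2 genes outside the family with the highest correlation. DESeq2 1.42.0, limma 3.58.1 (voom with quality weights), other scalings, filters, splits by Y-linked counts and leaving out each library were alternatives. Replicates of a group differed beyond sampling noise (chi-square per degree of freedom at least 5.20). The p-values measure the spread between these libraries. The study describes its samples as coming from individual mice, but the labels do not tie each library to a separate animal.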

Additional observations from a re-analysis of the deposited data

Results flagged for a closer look

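Within the groups of 4 libraries, 4 of 32 sets of values (a gene in a group, as CPM or as a share of the Defa counts) had 1 library far from the other 3. Chance alone gives about 1 in 20 for a single set. Each gene and group entered on both scales, so the sets are not independent, and no excess is read from the 4. Defa34 in TG replicate 3 stood at 1224 CPM, above the other TG libraries, and at 0.466% of the Defa counts. Defa40 in TG replicate 4 stood at 1239 CPM, above the other TG libraries. Defa3 in WT replicate 1 held 0.141% of the Defa counts, above the other WT libraries.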

How the results depend on the processing

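The number of genes called over the whole table, 2136, was 1049 with total counts, 217 and 1138 within the libraries with and without Y-linked counts, and between 1055 and 2228 when 1 library was left out. The 4 called members became 2 with total counts, 0 within the libraries with Y-linked counts, and between 1 and 4 without 1 library. The 8 called genes of the list on processing, maturation, sensing and granule proteins were between 3 and 8 without 1 library. The summed share of the 8 genes in the Defa counts, lower in TG by 0.379 percentage points (difference -0.379), was at -0.601 without Defa24 in the sum, at -0.149 as a share of all counts, and at -0.173 and -0.585 within the libraries with and without Y-linked counts. It lay between -0.461 and -0.316 without 1 library. The median log2 fold change of the 8 genes (-0.47) lay between -0.59 and -0.34 without 1 library, and the median log2 ratio to the other Defa counts (-0.25) between -0.27 and -0.19. Direction turned for 2 genes that were not called. Defa26 was at 0.0017 within the libraries with Y-linked counts. Defa28 was at 0.11 with total counts, at 0.18 within the libraries with Y-linked counts, and between -0.20 and 0.10 without 1 library. The cause of these changes was not tested, and the splits also held fewer libraries.

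Same-numbered libraries of both groups deviated together with correlations of 0.0762, 0.0666, 0.286 and 0.231, not all above 0.1, so the numbers were not taken as pairs. With a replicate block, 5 of the 8 genes were called (the 4 and Defa40), 2203 genes were called in all, 7 genes of that list were called, and the summed share differed by -0.379 percentage points. Of the 4 called genes, Defa35 was lost with a term for Y-linked counts and also when near-identical genes were summed, where Defa34 and Defa5 became 1 sum. With limma voom Defa40 was called besides the 4. Sums over subgroups were added after the data were seen. For unique windows, 3 of 8 genes had over 50% at 75 bases.

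Defa41 and Defa28 had the fewest counts of the 8 genes, 337 to 1604 per library. The assignment of reads between near-identical genes is a further limit.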
